A study of Homo sapiens with 9 samples.

Results

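The MYC network described here comprises 8 genes, namely MYC, MAX, MXD1, MXD3, MXD4, MNT, MLX and MYCBP, and was measured through every probe set annotated to exactly 1 of these symbols. Of the 54675 probe sets on the array, 18 met that rule. They represent 6 of the 19775 genes with a probe set of their own, and 6 of the 8 genes: MYC with 1 probe set, MAX with 5, MXD1 with 3, MXD3 with 1, MNT with 2 and MLX with 6. MXD4 and MYCBP were represented by 7 probe sets that carry the symbol of another gene as well, and these are described apart. Of the 18 probe sets, 16 exceeded the median signal of the array on at least 3 of the 9 arrays and entered the test. The other 2, 206877_at of MXD1 and 236749_at of MNT, exceeded it on 0 arrays.

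The study profiled 3 cultures of human colorectal carcinoma cells on Affymetrix arrays, with 3 arrays labelled as biological replicates for each. SW480/EGFP, the SW480 colon carcinoma line carrying green fluorescent protein, is the parent. SCP51 and SCP58 each grew from a single SW480 cell, and were ranked by orthotopic implantation in mice, SCP51 as highly metastatic and SCP58 as weakly metastatic. All 3 cultures were kept in RPMI medium with fetal bovine serum, and total RNA was taken from cultured cells, not from tumours. Each progeny is 1 clone, so a difference between SCP51 and SCP58 is a difference between 2 lines, and metastatic potential cannot be told apart from any other property of those clones. The p-values measure the spread between arrays of a line.

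MYC is a basic helix-loop-helix leucine zipper transcription factor that binds DNA only when paired with MAX, at E-box sequences near genes for ribosome production, nucleotide synthesis, metabolism and cell division. The MXD proteins and MNT also pair with MAX at these sites and recruit the SIN3 and histone deacetylase corepressors, so MAX is shared between activating and repressing dimers. MLX is a MAX-like protein that pairs with the glucose-sensing factors MLXIP (MondoA) and MLXIPL (ChREBP) and with some of the MXD proteins, and MYCBP was named for its binding to the amino terminus of MYC. In the colon, β-catenin and TCF7L2 activate MYC transcription in crypt cells, and truncation of APC, which SW480 carries, keeps that input active.

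The deposited signals had array medians of 41.1 to 44.3. The first SCP51 array stood apart, with correlations of 0.891 to 0.911 with the other 8 arrays, so values without it are given beside those of the members and the gene lists that it moves. In the colon epithelium list, 8 of 9 markers passed the filter, with summed signals of 18937 to 24502 in SCP51, 20020 to 21044 in the parent and 19256 to 21185 in SCP58. The exception was LGALS4, at 12.0 to 18.4. The brightest were KRT18 (4978 to 7692), KRT8 (4966 to 6487), KRT19 (4482 to 6565) and EPCAM (2554 to 3184), followed by CDH1 (459 to 882). The intestinal markers VIL1 (107 to 129.9), CDX1 (80.0 to 106) and CDX2 (45.5 to 58.2) passed but were dim. In the list of fibroblast, endothelial and blood cell markers, 5 of 10 measured genes passed. These were COL1A1 (126 to 172), HBB (120.3 to 203), CD3E (71.9 to 90.8), DCN (28.6 to 61.9) and PECAM1 (36.3 to 57.2), with summed signals of 534 to 669.8 in SCP51, 627 to 688 in the parent and 548 to 667 in SCP58. The 5 that did not pass included the leukocyte marker PTPRC, at 19.3 to 29.0.

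Differences between lines are given as log2 differences with their standard error, from limma fitted to 13598 genes, each represented by its brightest probe set; a gene was called at a Benjamini-Hochberg adjusted p under 0.05 over all genes. Between the progenies, MAX and MLX were higher in SCP51 than in SCP58, by 1.51-fold and 1.53-fold. These were 2 of the 6 measured members, where 4.08% of all genes were called and 1.48% were called higher. Both were higher on every SCP51 array than on any SCP58 array, as were 7.91% of all genes. MYC, the MXD genes and MNT did not pass. The median log2 difference over the 6 members was 0.46, against -0.11 over all genes. Of all genes called in this comparison 201 were higher and 354 lower, a split that became 319 and 302 after quantile normalization and 309 and 297 after centring on the 75th percentile.

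Against the parent, no member was called in either progeny by limma. For SCP51 minus SW480/EGFP the count was 0 of 6, against 2.96% of all genes called, and 2 members, MAX and MLX, had an unadjusted p under 0.05, as did 19.6% of all genes. These 2 were above the parent on every SCP51 array, as were 9.5% of all genes. For SCP58 minus SW480/EGFP it was 0 of 6, against 0.14% of all genes called, and 3 members, MAX, MLX and MNT, had an unadjusted p under 0.05, as did 8.6% of all genes. The SCP58 signals of MYC, MAX, MLX and MNT all lay below the parent's lowest array, 4 of 6 members where 7.58% of all genes did so. The 3 comparisons share arrays in pairs, so they are not independent of each other.

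**Figure D1:**
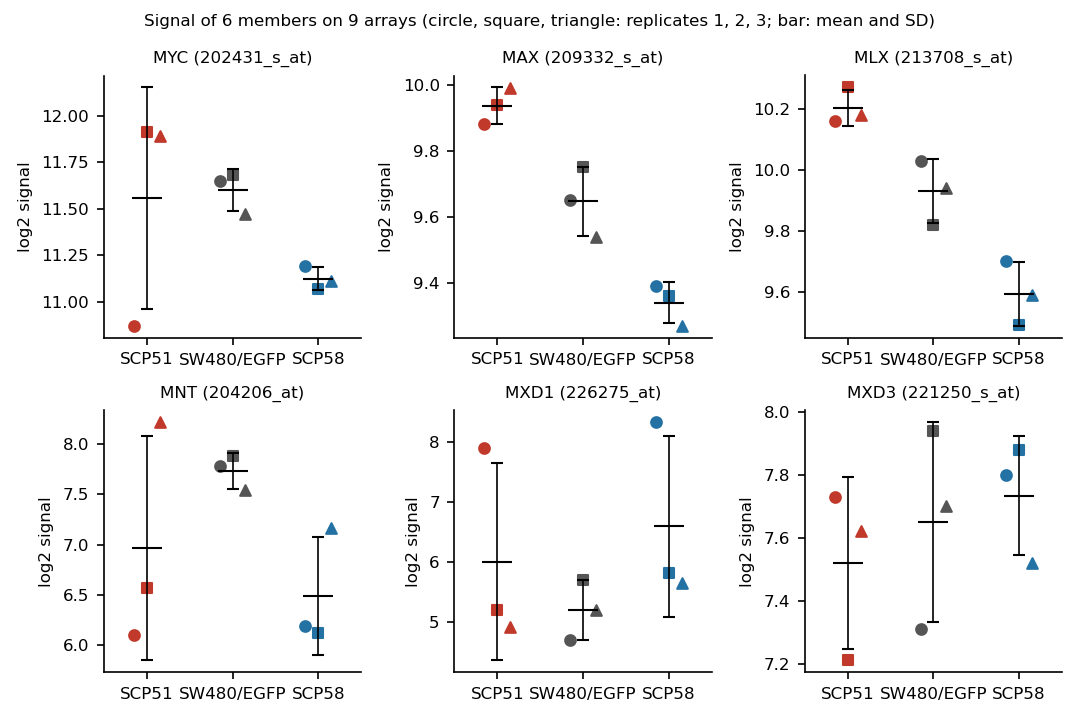
Log2 signal (vertical axis) of the brightest probe set of each of the 6 measured members on each of the 9 arrays, grouped by line on the horizontal axis, with bars for the group mean and SD (n = 3) and a marker shape for each replicate number. MAX and MLX step down from SCP51 through the parent to SCP58 with no overlap, while MYC does so except on the first SCP51 array, where its signal was 1876.

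MYC, the activating member of the network, lies on chromosome 8 and was read by 202431_s_at. Its signal was 1876, 3851 and 3793 on the 3 SCP51 arrays, 3211, 3279 and 2837 on the parent arrays, and 2329, 2147 and 2208 on the SCP58 arrays. All SCP58 arrays were below all parent arrays. The other 2 SCP51 arrays were the highest of the 9 and the first SCP51 array was the lowest, so SCP51 overlapped both other lines. The SD of log2 signal was 0.59 in SCP51, against 0.11 in the parent and 0.06 in SCP58.

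With all arrays the log2 difference of MYC between SCP51 and SCP58 was 0.44 ± 0.25 (SE; limma adjusted p = 0.35), and that between SCP58 and the parent was -0.48 ± 0.25 (adjusted p = 0.688). Without the first SCP51 array, MYC passed the test in both comparisons. The difference was then 0.78 ± 0.08 between SCP51 and SCP58 (limma adjusted p = 0.00172, with 8.85% of all genes called), and -0.48 ± 0.07 between SCP58 and the parent (adjusted p = 0.0335, with 0.559% called). The second difference contains no SCP51 array and stayed at -0.48. Its standard error fell from 0.25 to 0.07, because the spread is estimated over all arrays in the fit. With array weights, which give a deviating array less influence instead of removing it, the same differences were 0.73 (adjusted p = 0.0127) and -0.43 (adjusted p = 0.0365). Over all 20 alternatives, the adjusted p between SCP51 and SCP58 ranged from 0.00172 to 0.613. MYC was called in 2 of the 20 and not called in 18, both between the progenies and between SCP58 and the parent.

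Between SCP51 and the parent MYC had no settled direction. The log2 difference was -0.04 ± 0.25 (limma adjusted p = 0.944), turned to 0.01 with quantile normalization and 0.02 with centring on the 75th percentile, and was 0.30 ± 0.08 without the first SCP51 array (adjusted p = 0.0628).

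MAX, the obligate partner of MYC and also a partner of the MXD proteins and MNT, lies on chromosome 14. Its brightest probe set, 209332_s_at, had signals of 942, 984 and 1014 in SCP51, 804, 863 and 744 in the parent, and 669.5, 657 and 618 in SCP58. The lines did not overlap, with SCP51 highest and SCP58 lowest. The log2 difference between SCP51 and SCP58 was 0.60 ± 0.10 (limma adjusted p = 0.0207). The parent stood between them, 0.29 ± 0.10 below SCP51 (adjusted p = 0.184) and 0.31 ± 0.10 above SCP58 (adjusted p = 0.425), neither of which passed. On the first SCP51 array, where MYC was low, this probe set was not, and without that array the difference between the progenies was 0.62 ± 0.11 (adjusted p = 0.0116).

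The other 4 probe sets of MAX also had a log2 difference above 0 between SCP51 and SCP58. The signal of 209331_s_at was 605, 731 and 713 in SCP51 and 565, 565 and 497 in SCP58, with no overlap and a log2 difference of 0.33 ± 0.14. For 210734_x_at the signals were 331, 344 and 319 in SCP51 and 184, 276 and 213 in SCP58, again without overlap, with a difference of 0.58 ± 0.18. The suffix _x_at marks probe sets in which some probes can also bind other transcripts. In the limma fit over 29166 probe sets, the adjusted p was 0.25 and 0.117 for these probe sets, and 0.025 for 209332_s_at.

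The remaining pair of MAX probe sets overlapped between the progenies. The log2 difference was 0.06 ± 0.32 for 208403_x_at, whose signal on the first SCP51 array, 89.3, was the lowest of the 9, and 0.15 ± 0.17 for 214108_at. When the 5 probe sets were averaged, the MAX difference was 0.34 (limma adjusted p = 0.268) and the call was lost. It was also lost when only the 6 arrays compared were fitted (adjusted p = 0.0776) and without the second SCP51 array (0.0753), the second SCP58 array (0.0808) or the third SCP58 array (0.0738).

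MLX, the MAX-like partner of MondoA and ChREBP, lies on chromosome 17. The 250 bases before its RefSeq start (GRCh38.p14, chr17:42566850-42567099, plus strand) are shown because MLX was 1 of the 2 called members and its upstream window holds an E-box, the motif that MYC-MAX and MXD-MAX dimers bind. Capitals mark the E-box.
MLX upstream window: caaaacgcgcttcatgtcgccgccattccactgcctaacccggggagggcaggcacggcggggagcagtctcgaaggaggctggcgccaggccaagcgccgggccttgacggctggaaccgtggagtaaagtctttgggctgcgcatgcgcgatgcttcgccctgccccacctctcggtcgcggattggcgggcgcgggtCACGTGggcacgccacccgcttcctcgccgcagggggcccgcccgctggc
The E-box, CACGTG, starts 50 bases before the start of the gene. It is its own reverse complement, so 1 search covers both strands, and 6.34% of 35116 RefSeq upstream windows of this length hold it. MNT's window holds 1, 193 bases before the start, and the windows of MXD1 and MXD3 and both listed windows of MAX hold none. The arrays carry no measurement of binding at these windows.

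The brightest MLX probe set, 213708_s_at, had signals of 1141, 1236 and 1160 in SCP51, 1046, 905 and 986 in the parent, and 829.6, 720.1 and 771 in SCP58. As with MAX, the lines did not overlap and the parent lay in the middle. The log2 difference between SCP51 and SCP58 was 0.61 ± 0.11 (limma adjusted p = 0.0207). Against the parent it was 0.27 ± 0.11 in SCP51 (adjusted p = 0.21) and -0.34 ± 0.11 in SCP58 (adjusted p = 0.382). Without the first SCP51 array the difference between the progenies was 0.63 ± 0.11 (adjusted p = 0.0119).

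The log2 differences of the 6 MLX probe sets ranged from -0.29 to 0.61, and those of the 5 MAX probe sets from 0.06 to 0.60. The signals of 217910_x_at were 537, 570.2 and 609.8 in SCP51 and 420.1, 369 and 357 in SCP58, with no overlap, a log2 difference of 0.58 ± 0.14 and a limma adjusted p of 0.0614. For 217909_s_at they were 483, 981 and 926 in SCP51 and 635, 787 and 786 in SCP58. As with MYC, the first SCP51 array was the lowest of the 9 and the other SCP51 arrays the highest, and the difference was 0.05 ± 0.26. The 3 dim probe sets had differences of -0.29 ± 0.27 (1570347_at), -0.02 ± 0.12 (210752_s_at) and 0.12 ± 0.26 (231401_s_at).

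Averaged over its 6 probe sets, the MLX difference between SCP51 and SCP58 was 0.18 (limma adjusted p = 0.588) and the call was lost. It was also lost with only the 6 arrays compared (adjusted p = 0.0778), and without the second SCP51 array (0.0779), the third parent array (0.0524), the second SCP58 array (0.0948) or the third SCP58 array (0.07).

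**Figure D2:**
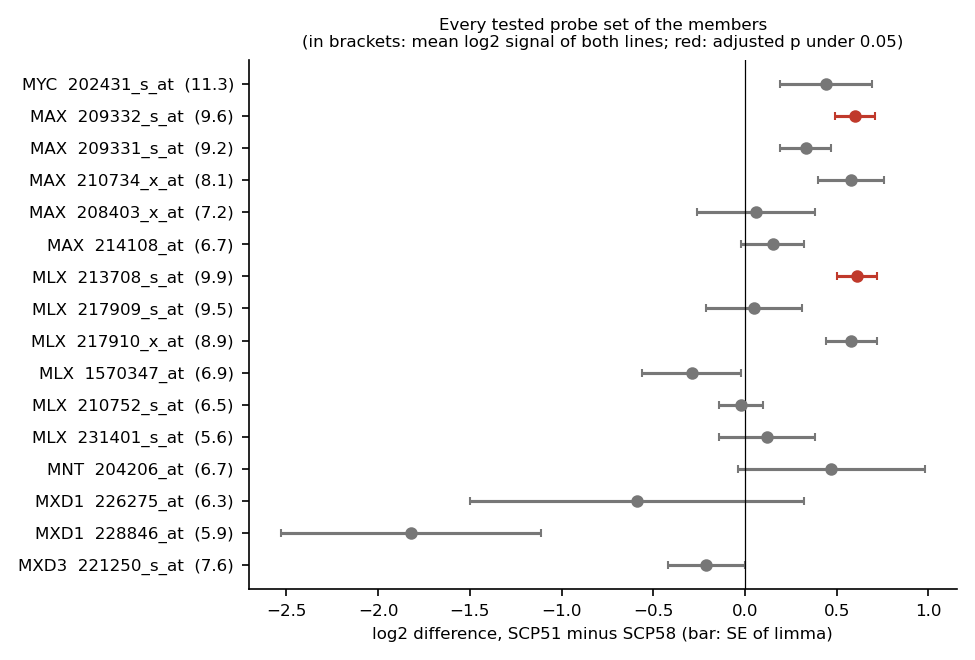
Log2 difference (horizontal axis) between SCP51 and SCP58 for each of the 16 tested member probe sets, with bars of 1 standard error and the called probe sets marked. The 5 MAX probe sets all lie above 0, the MLX probe sets spread from -0.29 to 0.61, and both MXD1 probe sets lie below 0.

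Fitted one by one, 2 of the 16 member probe sets were called between SCP51 and SCP58, where 3.35% of all probe sets were. They were the same probe sets that represented MAX and MLX. In this comparison 5 member probe sets were higher in SCP51 without overlap, where 8.94% of all probe sets were, and 1, of MXD1, was lower, where 14.3% were. Against the parent, 0 of 16 were called by limma in SCP51 and 0 of 16 in SCP58, where 1.89% and 0.134% of all probe sets were called, and 3 and 4 had an unadjusted p under 0.05. In SCP58, 7 of the 16 lay below the parent without overlap, where 8.26% of all probe sets did: 4 of MAX and 1 each of MYC, MNT and MLX.

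The brightest probe sets of MAX and MLX had every SCP51 array above every parent array and every parent array above every SCP58 array. With 1 probe set per gene, this combination occurred in 59 of 13598 genes, or 0.434%. No other MAX or MLX probe set showed it. In SCP51 against the parent, 209331_s_at (0.04 ± 0.14) and 210734_x_at (0.04 ± 0.18) of MAX overlapped, as did 217909_s_at of MLX (-0.13 ± 0.26). For 217910_x_at of MLX, SCP58 overlapped the parent. Group means in that order were found in 12.8% of genes. The lines are given here by their order, which was not tested as such.

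Among the antagonists, MXD1, an early response gene of differentiating cells whose product represses MYC targets, was near the detection filter. Its brighter probe set, 226275_at, had signals of 241, 36.7 and 30.2 in SCP51, 25.9, 52.1 and 36.6 in the parent, and 323, 56.0 and 50.0 in SCP58. The first array of each progeny was several times above every other array. The lines overlapped, with a log2 difference of -0.59 ± 0.91 between SCP51 and SCP58 (limma adjusted p = 0.749). Leaving out 1 array at a time gave MXD1 differences from -2.15, without the first SCP58 array, to -0.04, without the third SCP51 array. The value of -2.15 is not from 226275_at but from another probe set, 228846_at, which was the brighter one without that array.

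The second MXD1 probe set, 228846_at, gave another picture. Its signals were 13.5, 55.0 and 42.3 in SCP51, 18.2, 104 and 61.4 in the parent, and 70.2, 165 and 119 in SCP58. All SCP51 arrays were below all SCP58 arrays, by a log2 difference of -1.82 ± 0.71 (limma adjusted p = 0.211 over probe sets), which did not pass. These probe sets exceeded the array median on 5 and 6 arrays, and the first SCP51 array was high in one and lowest in the other. Against the parent, the 226275_at difference was 0.81 ± 0.91 in SCP51 (adjusted p = 0.643) and 1.40 ± 0.91 in SCP58 (0.809) in the gene fit. With the first SCP51 array left out, 228846_at became the brighter probe set and stood for MXD1, whose differences were then -1.20 ± 0.63 between the progenies (adjusted p = 0.281), -0.02 ± 0.63 for SCP51 against the parent (0.99) and 1.18 ± 0.57 for SCP58 against the parent (0.442).

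MXD3, an MXD protein known from proliferating cells, overlapped in all comparisons. The signal of 221250_s_at was 212, 148 and 197 in SCP51, 159, 245 and 209 in the parent, and 223, 236 and 184 in SCP58. The log2 difference between SCP51 and SCP58 was -0.21 ± 0.20 (limma adjusted p = 0.582). It was -0.13 ± 0.20 for SCP51 and 0.08 ± 0.20 for SCP58 against the parent (adjusted p = 0.742 and 1.0).

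MNT, the broadly expressed MAX partner that competes with MYC, had signals of 68.7, 95.3 and 298 in SCP51, 219.5, 236 and 186 in the parent, and 72.9, 69.6 and 144 in SCP58 for 204206_at. The parent arrays lay close together and all SCP58 arrays were below them. In SCP51 the third array was the highest of the 9 and the first was the lowest. The log2 difference between SCP58 and the parent, -1.24 ± 0.51, did not pass (limma adjusted p = 0.535). Between SCP51 and the parent it was -0.77 ± 0.51 (adjusted p = 0.423), and between the progenies 0.47 ± 0.51 (adjusted p = 0.631). Without the first SCP51 array these were -0.34 ± 0.46 (0.708) and 0.91 ± 0.46 (0.259), and between the progenies the value turned to -0.15 without the third SCP51 array.

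MXD4, another MXD antagonist, was read by 3 probe sets that also carry the microRNA symbol MIR4800. Their log2 differences between SCP51 and SCP58 were 0.13 ± 0.12 (210778_s_at), 0.16 ± 0.17 (212346_s_at) and -0.45 ± 0.36 (212347_x_at). The last had signals of 100.2, 222 and 289 in SCP51, against 238, 296 and 234 in SCP58, so its lowest value again fell on the first SCP51 array. The signals of 210778_s_at were higher in SCP51 than in SCP58 without overlap, as were those of 8.94% of all probe sets. None of the 3 MXD4 probe sets was called by limma in any comparison, and 0 of the 3 had an unadjusted p under 0.05.

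MYCBP was read by 4 probe sets that also carry the read-through symbol GJA9-MYCBP, and 2 of them GJA9. The brightest, 203359_s_at, had signals of 511, 504 and 507 in SCP51, 622, 447 and 647 in the parent and 676, 592 and 609 in SCP58. SCP51 was below SCP58 on every array, with a log2 difference of -0.30 ± 0.16 (limma adjusted p = 0.343). The probe sets 203360_s_at, at -0.28 ± 0.14, and 221415_s_at, at -0.21 ± 0.10, were also lower in SCP51 without overlap. The fourth, 203361_s_at, ran the other way at 0.32 ± 0.16, also without overlap. Of all probe sets, 14.3% were lower and 8.94% higher in SCP51 without overlap. None of the 4 was called in any comparison by limma. Between the progenies 0 of the 4 had an unadjusted p under 0.05, and against the parent 1 did, 203360_s_at in SCP51 (-0.38 ± 0.14; adjusted p = 0.221). Which of the transcripts each signal came from cannot be told apart.

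The position of MYC on chromosome 8 allowed its difference to be set beside those of its neighbours, taken as the 10 measured genes on either side in RefSeq order. Between SCP51 and SCP58, all 20 neighbours had a log2 difference below 0, from -1.25 to -0.00, with medians of -0.58 before MYC and -0.33 after it. MYC stood at 0.44 in the same fit. Over all genes the median was -0.11.

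Of these 20 neighbours 2 passed the test, both lower in SCP51, where 2.6% of all genes were called lower. LRATD2, located 2 measured genes before MYC, had a log2 difference of -1.23 ± 0.20 (limma adjusted p = 0.0156), and MTSS1, an actin-binding scaffold protein, one of -0.69 ± 0.12 (adjusted p = 0.0218). The nearest measured genes before MYC were TRIB1, a pseudokinase, at -0.02 ± 0.09, LRATD2, and POU5F1B, a retrogene related to POU5F1, at -0.09 ± 0.10. After MYC came LINC00824 at -0.26 ± 0.14, the gasdermin GSDMC at -0.03 ± 0.12 and CYRIB, a regulator of Rac1, at -1.25 ± 0.52 (adjusted p = 0.213).

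Against the parent, 19 of the 20 neighbours were below 0 in SCP51, where 64.0% of all genes were, with medians of -0.51 and -0.37. LRATD2 (-1.30 ± 0.20; adjusted p = 0.0126) and MTSS1 (-0.69 ± 0.12; adjusted p = 0.0232) were called lower by limma, where 1.58% of all genes were. This comparison shares its SCP51 arrays with the previous one. In SCP58 minus the parent the neighbours had medians of -0.05 and -0.05, and 7 of 20 were above 0. MYC was at -0.48 there. Over the 20 alternatives, the LRATD2 call was kept in 15 between the progenies and in 16 against the parent, and the MTSS1 call in 13 and 11. The number of gene copies was not measured.

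Without the first SCP51 array, 15 of the 20 neighbours were below 0 between the progenies, where 57.4% of all genes were. Their median was -0.27 against -0.05 over all genes, and MYC was at 0.78. Then 6 neighbours were called lower by limma, where 4.85% of all genes were: TATDN1, NDUFB9, MTSS1, NSMCE2, LRATD2 and EFR3A, from -0.42 for EFR3A to -1.38 for LRATD2. Against the parent, 19 of 20 were below 0 in SCP51, where 56.3% of all genes were, with a median of -0.33. Of these neighbours 3 were called lower (NDUFB9, MTSS1 and LRATD2), where 2.87% of all genes were.

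**Figure D3:**
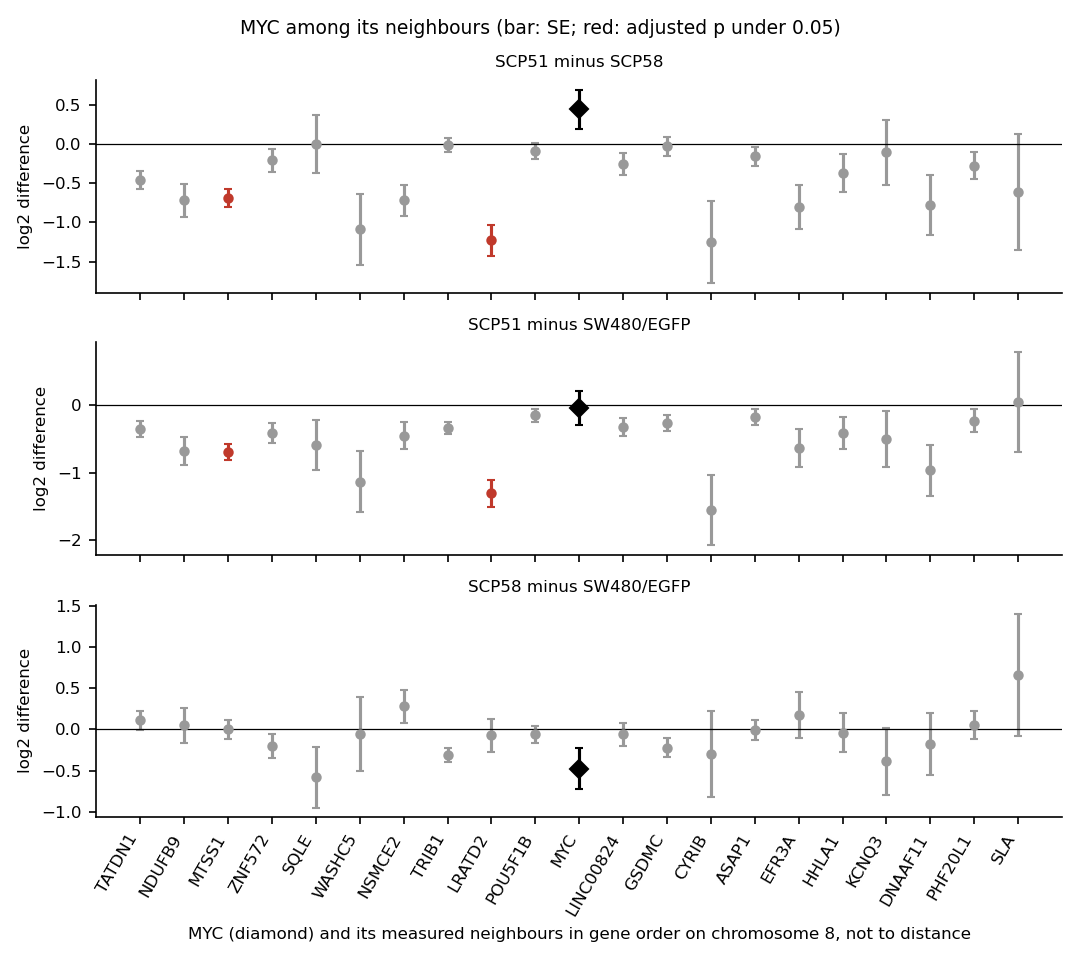
Log2 difference (vertical axis) of MYC and of the 10 measured genes on either side of it in RefSeq order on chromosome 8 (horizontal axis, not to distance), in the 3 comparisons, with bars of 1 standard error. All 20 neighbours lie at or below 0 between SCP51 and SCP58 while MYC is at 0.44, and in SCP58 minus the parent they scatter about 0 while MYC is at -0.48.

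The neighbours of MAX (0.60) and MLX (0.61) were taken in the same way. Between SCP51 and SCP58 their medians were -0.13 before MAX and 0.08 after it, and -0.17 on both sides of MLX.

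The genes whose log2 signal followed that of MYC most closely over the 9 arrays were RUFY1, an endosomal adaptor (Pearson r = 0.986), IFRD2 (0.977), ASB6 (0.958), CYB5B, a cytochrome b5 of the outer mitochondrial membrane (0.954), and TP53RK, a kinase of the tRNA-modifying KEOPS complex (0.948). They were chosen as the closest of all tested genes. The arrays share their line and the low first SCP51 array, so the coefficients describe these 9 arrays only. Without that array they were 0.993, 0.967, 0.944, 0.936 and 0.948. RUFY1, for example, had log2 signals of 7.83, 8.98 and 8.87 in SCP51, 8.54, 8.67 and 8.46 in the parent and 7.96, 7.90 and 7.92 in SCP58, the same arrangement as MYC.

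In the rest of the network, 6 further genes were measured (MYCN, MYCL, MXI1, MGA, MLXIP and MLXIPL) and 0 were called by limma in each comparison. An unadjusted p under 0.05 was reached by 1 in SCP51 minus SCP58, where 21.3% of all genes reached it. The counts were 2 in SCP51 minus the parent (19.6% of all genes) and 0 in SCP58 minus the parent (8.6%). MXI1, the MXD family member on chromosome 10, had a log2 difference of -0.74 ± 0.28 between SCP51 and SCP58 (adjusted p = 0.175). It was lower in SCP51 with no overlap, as were 14.3% of all probe sets. MLXIP, the MondoA partner of MLX, was at 0.16 ± 0.16 (adjusted p = 0.592). Without the first SCP51 array, 3 of the 6 passed between the progenies, where 8.85% of all genes were called, 4.01% higher and 4.85% lower. MYCL was lower in SCP51 by a log2 difference of -1.01 ± 0.19 (adjusted p = 0.0145). MXI1 was lower by -0.98 ± 0.25 (0.0414), and MGA, a large MAX partner, was higher by 0.57 ± 0.14 (0.0412).

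Of 18 measured cofactors of MYC and the MXD proteins, 17 genes of MYC protein turnover and 10 regulators of MYC transcription, 0 were called in each comparison by limma. Between SCP51 and SCP58, 1, 2 and 0 of them had an unadjusted p under 0.05, which 21.3% of all genes reached. The list medians were -0.07, -0.03 and -0.05, near the -0.11 of all genes. Of the brightest cofactors, the deacetylase HDAC1 was at -0.03 ± 0.09 and the helicase RUVBL2 at -0.34 ± 0.18. HUWE1, a ubiquitin ligase of MYC, was at 0.02 ± 0.04, and the deubiquitinase USP22 at 0.22 ± 0.10. Among the regulators, HNRNPK was at -0.10 ± 0.14 and CNBP, which binds the MYC promoter, at 0.09 ± 0.08.

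Some of these genes passed between the progenies when the first SCP51 array was left out, where 4.01% of all genes were called higher and 4.85% lower. Of the 18 cofactors, 2 were higher in SCP51, the acetyltransferase KAT2A (0.93 ± 0.18; limma adjusted p = 0.0165) and the chromatin remodeller subunit BPTF (0.84 ± 0.16; 0.0144), and 1 was lower, the corepressor scaffold SIN3A (-1.12 ± 0.17; 0.00662). Of the 17 turnover genes, the deubiquitinases USP36 (0.81 ± 0.15; 0.0133) and USP22 (0.32 ± 0.08; 0.0333) were higher. Of the 10 regulators, TCF7L2, the β-catenin partner upstream of MYC, was higher (0.46 ± 0.07; 0.00549). Against the parent, SCP51 then had BPTF (0.79 ± 0.16; adjusted p = 0.023) and USP36 (0.61 ± 0.15; 0.0487) called higher and SIN3A (-0.79 ± 0.17; 0.032) and MYCL (-1.11 ± 0.19; 0.0126) called lower, where 2.52% and 2.87% of all genes were. In SCP58 minus the parent none of the 3 lists had a call without that array.

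Textbook targets of MYC were counted by function. Between SCP51 and SCP58, 1 of 35 nucleolar and ribosome biogenesis genes was called, 1 of 21 nucleotide and polyamine synthesis genes, 0 of 17 cell cycle genes, 1 of 19 metabolism and mitochondrial genes and 0 of 9 translation factors, against 4.08% of all genes called and 1.48% called higher. The 3 called genes were higher in SCP51. UBTF, the RNA polymerase I factor, differed by 0.61 ± 0.14 (limma adjusted p = 0.0498), PRPS2, which makes phosphoribosyl pyrophosphate for nucleotide synthesis, by 0.65 ± 0.15 (0.0498), and the glucose transporter SLC2A1 by 0.55 ± 0.10 (0.0232).

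These calls were not stable. UBTF was lost in 13 of 20 alternatives and PRPS2 in 11, while SLC2A1 was lost in 7 and turned to -0.23 when its probe sets were averaged. At an unadjusted p under 0.05, which 21.3% of all genes reached, the 5 lists held 8, 3, 3, 5 and 2 genes in the order given. Their medians, 0.02, 0.12, -0.09, 0.05 and 0.02, were all above the all-gene median of -0.11.

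In SCP58 minus the parent, no gene of these 5 lists was called by limma. An unadjusted p under 0.05 was reached by 5, 2, 2, 5 and 0, and by 8.6% of all genes. The differences of the list genes still lay mostly on one side. Of the 35 nucleolar genes, 33 were below 0, with a median of -0.23, and of the 19 metabolism and mitochondrial genes all 19 were below 0, with a median of -0.17. Over all genes 50.1% were below 0 and the median was -0.00. The medians of these lists were -0.23 and -0.15 after quantile normalization, and -0.24 and -0.17 after centring on the 75th percentile. Over 19 alternatives the nucleolar count fell to 28 of 35 at the lowest, without the second SCP58 array, and the metabolism count to 18 of 19. The nucleotide, cell cycle and translation lists had 15 of 21, 12 of 17 and 7 of 9 below 0. In SCP51 minus the parent, 24 of 35 nucleolar genes (median -0.11) and 14 of 19 metabolism genes (median -0.19) were below 0. There 64.0% of all genes were below 0, with a median of -0.10. Without the first SCP51 array the SCP51 medians of these lists were 0.04 and -0.03, against -0.05 over all genes. Genes of a list are not independent, and the lists were described, not tested.

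**Figure D4:**
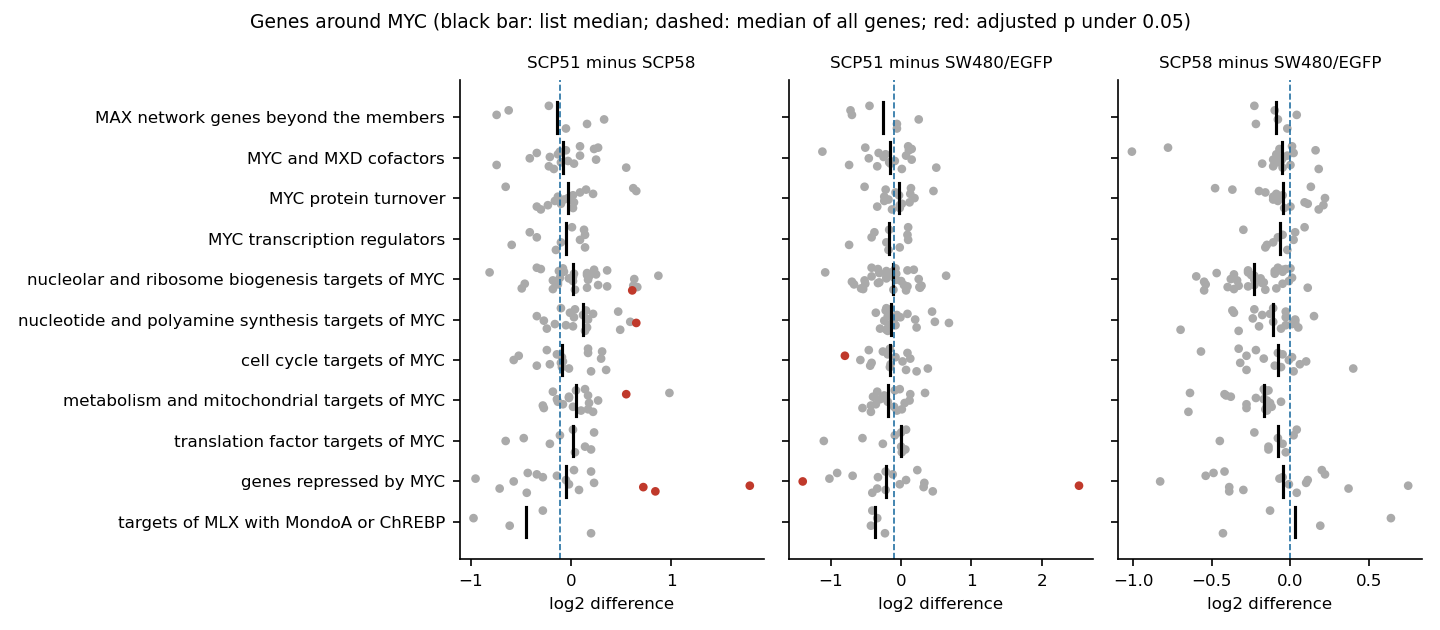
Log2 difference (horizontal axis) of every measured gene of 11 gene lists (points, red where called), with the list median as a black bar and the median of all genes as a dashed line, in the 3 comparisons. The nucleolar and metabolism lists lie almost wholly below 0 in SCP58 minus the parent, with medians of -0.23 and -0.17.

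As for MYC itself, the values of its targets between the progenies depended on the first SCP51 array. With all arrays 19 of 35 nucleolar genes were above 0 between SCP51 and SCP58. Without that array 28 of 35 were, with a median of 0.27 against -0.05 over all genes. Of the nucleolar genes 8 were then called higher by limma and 1 lower, where 4.01% of all genes were called higher and 4.85% lower. They included UBTF (0.75 ± 0.11; adjusted p = 0.0065), the ribosome assembly factor GRWD1 (0.89 ± 0.13; 0.00654), the rRNA-processing factor RCL1 (0.76 ± 0.15; 0.0191) and POLR1B, a subunit of RNA polymerase I (1.27 ± 0.28; 0.0267). In the nucleotide and polyamine list 3 of 21 were called higher, with AMD1, a polyamine synthesis enzyme, at 0.80 ± 0.12 (adjusted p = 0.00644). In the metabolism list 3 of 19 were called higher, namely SLC2A1 (0.59 ± 0.10; 0.0101), the transferrin receptor TFRC (0.26 ± 0.06; 0.0339) and TMEM97, a sterol-regulated membrane protein (0.40 ± 0.10; 0.0415). In the cell cycle list 1 was called, CKS1B, and it was lower in SCP51 (-0.63 ± 0.14; adjusted p = 0.0255). In SCP58 minus the parent the same omission gave 1 call in these lists, TMEM97, which was lower in SCP58 (-0.65 ± 0.09; adjusted p = 0.0252).

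Of 17 measured genes that MYC is known to repress, 3 were called between SCP51 and SCP58 by limma, all higher in SCP51, where 1.48% of all genes were called higher. THBS1, an antiangiogenic matrix protein, had log2 signals of 10.53 ± 0.45 in SCP51 and 8.76 ± 0.30 in SCP58 (SD, n = 3) and a difference of 1.78 ± 0.25 (adjusted p = 0.00902). CLU, the secreted chaperone clusterin, was higher by 0.72 ± 0.10 (adjusted p = 0.00891) and ZFP36L1, an mRNA decay factor, by 0.84 ± 0.13 (adjusted p = 0.0132). The list median was -0.05, and 10 of 17 were below 0.

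Against the parent SCP51 had 1 repressed gene called higher, where 1.38% of all genes were, THBS1 (2.53 ± 0.25; limma adjusted p = 0.00236), and 1 lower, KLF4, a differentiation factor of the colon epithelium (-1.40 ± 0.28; 0.0373). With all arrays, the activated lists had 1 call there, the cell cycle transcription factor E2F2, which was lower (-0.80 ± 0.17; 0.049). THBS1 passed in all 20 alternatives of both comparisons, whereas KLF4 was lost in 11 and E2F2 in 12. Between the progenies CLU was lost in 1 of 20 and ZFP36L1 in 4 of 20, among them with its probe sets averaged (0.58; adjusted p = 0.0544) and without the second SCP58 array (0.81; 0.0704) or the third SCP58 array (0.80; 0.0552). In SCP58 minus the parent 0 of 17 repressed genes were called, with 5 at an unadjusted p under 0.05, which 8.6% of all genes reached.

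The comparison of SCP51 with the parent called list genes in both directions once the first SCP51 array was left out, with 5.39% of all genes called. In the nucleotide and polyamine list AMD1 (0.77 ± 0.12; limma adjusted p = 0.00887) and PRPS2 (0.70 ± 0.16; 0.0405) were higher. In the nucleolar list GRWD1 was higher (0.56 ± 0.13; 0.048) and FBL, the methyltransferase fibrillarin, lower (-0.36 ± 0.08; 0.0395). In the cell cycle list E2F2 (-0.61 ± 0.13; 0.0318) and CKS1B (-0.64 ± 0.14; 0.0314) were lower, and in the repressed list THBS1 was higher (2.77 ± 0.21; 0.000345) and KLF4 lower (-1.54 ± 0.29; 0.0197).

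Targets of MLX with its Mondo partners were few, with 4 of 5 measured and 0 called in each comparison by limma. In each comparison 1 had an unadjusted p under 0.05. Of all genes, 21.3% reached that in SCP51 minus SCP58, 19.6% in SCP51 minus the parent and 8.6% in SCP58 minus the parent. Between SCP51 and SCP58, 3 of the 4 were below 0, with a list median of -0.45. KLF10, a zinc finger repressor, was at -0.61 ± 0.22 (adjusted p = 0.156) without overlap and the arrestin-related ARRDC4 at -0.97 ± 0.53 (adjusted p = 0.332).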

How the data were processed

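Total RNA from 3 cultures of 3 lines was labelled with biotin and hybridised, per the labels' protocols. The authors deposited 1 intensity per probe set on a linear scale. GCOS 1.4 is named per the submitters' processing notes; how it corrected background, summarised probes and scaled the arrays is not given in the sources used here. Signal over background could not be recomputed, and the number of arrays limits the precision.

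A floor of 1 was applied to the intensities (514 values) before the log2 step, without rescaling the arrays, and 62 control probe sets were dropped. Probe sets above the array median on at least 3 of 9 arrays were kept (29166), and the brightest with 1 symbol stood for a gene (13598 genes). All 9 arrays were fitted with limma 3.58.1 (R 4.3.3, intensity trend, two-sided, Benjamini-Hochberg); figures used matplotlib 3.10.9. On simulated data for SCP51 minus SCP58, 63.2% of log2 changes of 1 and 91% of log2 changes of 2 were recovered, and 5.29% of calls were false. The simulated noise was normal, with 1 SD per gene on all 9 arrays. It held no deviating array like the first SCP51 array, so these rates may not hold for the real arrays. Exact permutation of 3 against 3 arrays cannot go below p = 0.1 and was not used.

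Every member is named, with up to 4 called genes of each list with the smallest p, or up to 2 of its brightest where none was called; genes called only without the first SCP51 array were chosen after their values were seen, and so was the same omission for the neighbours of MYC. The members and lists were chosen with earlier results of these data known. RefSeq (GRCh38.p14) gave gene order and the upstream windows. Alternatives covered filter, scaling, pseudocount, variance model, array weights, probe sets per gene, arrays in the fit, the replicate number and leaving out each array.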

Additional observations from a re-analysis of the deposited data

How the results depend on the processing

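The count of members called between SCP51 and SCP58 (2) became 0 with probe sets averaged, 0 in a fit of 6 arrays (those compared) and 0 with the replicate block, and was 0 to 3 when 1 array was left out. Their probe sets called (2) became 4 with array weights, 0 with 6 arrays and 1 with the block (0 to 4 when 1 array was left out). All genes called (555) became 1527 with array weights, 134 with 6 arrays and 210 with the block (137 to 1189).

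For SCP51 minus the parent, array weights gave 1 member and 1 probe set (0 to 0 when 1 array was left out), and all genes called (402) became 1356, 151 with 6 arrays and 167 with the block (122 to 724). For SCP58 minus the parent, array weights gave 3 members and 4 probe sets (0 to 1 for both when 1 array was left out), and all genes called (19) became 1351, 31 with 6 arrays and 6 with the block (0 to 75).

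Reversals were SLC2A1 between the progenies (-0.23, probe sets averaged), and against the parent in SCP51 MXD1 (-0.63, filter at the 65th percentile), MLX (-0.03, probe sets averaged) and MYC (0.01 quantile, 0.02 at the 75th percentile, 0.30 array weights). Leaving out 1 array gave -0.15 to 0.91 for MNT between the progenies, -0.22 to 0.30 for MYC, -0.63 to 1.36 for MXD1 and -0.30 to 0.02 for MXD3 in SCP51 against the parent, and -0.09 to 0.23 for MXD3 in SCP58. For MXD1 in SCP51 against the parent, -0.63 is the value of probe set 228846_at, while the main value, 0.81, is that of 226275_at. The MXD1 range thus mixes both probe sets and is not a change of a single measurement. The cause of the other changes was not tested.

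The replicate numbers did not pair the arrays: deviations of arrays with the same number correlated at -0.22 to 0.13. With the block the adjusted p was 0.0643 for MAX and 0.0621 for MLX between the progenies.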
